A study of Mus musculus with 15 samples.

Results

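The 15 mouse thoracic aortas of the series were ranked by the level of Fkbp5 in CPM, and libraries were chosen by that value alone: the 5 libraries with the most Fkbp5 transcript were set against the 5 with the least, 10 of the 15 libraries in all. All animals were adult male wild-type C57BL/6 mice of 10 to 12 weeks, kept on a 12 hour light and 12 hour dark cycle and fed regular chow. They received 100 uL by gavage of celecoxib at 30 mg/kg, of rofecoxib at 10 mg/kg or of the vehicle PEG-400 alone, 5 mice each, and the aorta was taken 6 hours later at ZT11, the hour counted from lights on. Celecoxib and rofecoxib are inhibitors of cyclooxygenase-2, and the series asked what each does to aortic RNA. The high, middle and low Fkbp5 libraries are levels read off 1 transcript of the same libraries, so they are not groups of the study, and a difference between them is an association with Fkbp5.

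Fkbp5 encodes FKBP51, a co-chaperone that sits in the Hsp90 complex of the glucocorticoid receptor and lowers the receptor's affinity for hormone. Hormone-bound receptor moves to the nucleus and, from glucocorticoid response elements, switches on Fkbp5 itself, which makes its transcript a widely used readout of recent glucocorticoid exposure in many tissues, vessels included. In mice, which are active at night, circulating corticosterone climbs towards dark onset and rises with stress such as handling. No hormone was measured here.

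Fkbp5 (ENSMUSG00000024222, mm9 chr17:28535838-28654671) was measured in CPM, its count over the library's total, times 1e6. In the high libraries it stood at 926 CPM in celecoxib 1, 275 in celecoxib 3, 220 in vehicle 5, 198 in celecoxib 4 and 193 in vehicle 4. In the low libraries it stood at 59.98 CPM in vehicle 3, 57.4 in rofecoxib 5, 53.1 in rofecoxib 3, 45.2 in vehicle 2 and 43.8 in vehicle 1. The 5 libraries between them held 126 CPM in celecoxib 2, 101 in celecoxib 5, 76.6 in rofecoxib 2, 67.6 in rofecoxib 4 and 63.4 in rofecoxib 1. Celecoxib 1 thus stood apart even within the high libraries, at 3.36 times the next library, and the whole range covered 21.1-fold. The edge of the high level fell in a gap, between 193 and 126 CPM, while the edge of the low level separated 59.98 from 63.4 CPM. The high libraries averaged 363 ± 317 CPM (SD, n = 5) and the low ones 51.9 ± 7.19 CPM (SD, n = 5), a mean difference of 2.51 on the log2 scale; these values made the levels and were not tested.

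**Figure D1:**
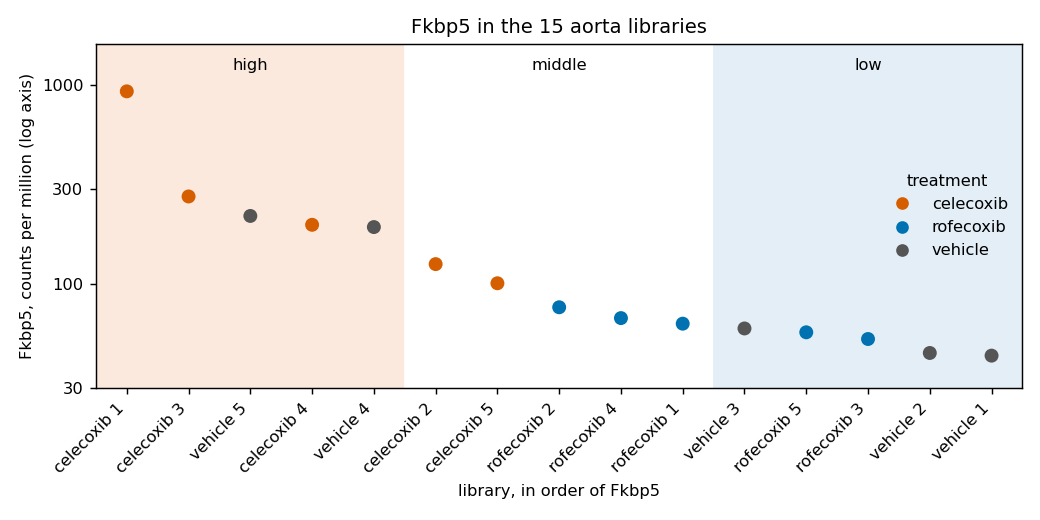
Fkbp5 in CPM (log axis) in each of the 15 libraries, ordered from most to least and coloured by treatment, with the high, middle and low levels shaded. Celecoxib 1 lies at 926 CPM, and no celecoxib library lies in the low level and no rofecoxib library in the high one.

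Treatment was spread unevenly over the levels. The high libraries were 3 celecoxib and 2 vehicle, the low ones 2 rofecoxib and 3 vehicle, and the middle ones 2 celecoxib and 3 rofecoxib. The ranking did not use treatment, so Fkbp5 was tested between treatments. The values tested are those that ranked the libraries, and these were chosen with earlier results of the data known. The adjustment over 3 pairs does not cover that choice. It averaged 325 ± 343 CPM (SD, n = 5) after celecoxib, 63.6 ± 9.14 CPM (SD, n = 5) after rofecoxib and 112 ± 86.7 CPM (SD, n = 5) after vehicle. Fkbp5 was higher after celecoxib than after rofecoxib by 1.87 on the log2 scale, with every celecoxib library above every rofecoxib library (exact two-sided permutation test, p = 0.00794, the smallest that 5 against 5 allows, adjusted over 3 pairs to 0.0238). Without any 1 of the rofecoxib libraries the adjusted p was 0.0714. Celecoxib differed from vehicle by 1.40 (exact permutation p = 0.103, adjusted 0.155) and rofecoxib from vehicle by -0.47 (exact permutation p = 0.429, adjusted 0.429), neither beyond the spread. The vehicle mice alone ran from 43.8 to 220 CPM and fell on both sides of the ranking, 2 high and 3 low.

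The libraries were close in size, at 30937046 to 30967115 counts, with 19158 to 19746 genes detected. No gene passed an adjusted p of 0.05 between the 5 high and 5 low libraries (edgeR quasi-likelihood test, 0 of 14796 genes, 0%; smallest adjusted p = 0.196), although 1361 genes, 9.20%, had an unadjusted p under 0.05, 673 of them higher and 688 lower. limma-voom also called none, and DESeq2 called 176 genes (1.29% of those it adjusted), 111 of them higher (0.814%). Without celecoxib 1, 7 of 15078 genes (0.0464%) were called, all higher in the high libraries. Taking Fkbp5 as a continuous level over all 15 libraries called 1274 of 15860 genes (8.03%), of which 743 rose and 531 fell with each doubling of Fkbp5. That count was 66 (0.431%), 57 up (0.372%) and 9 down (0.0588%), without celecoxib 1, and 64 of the 66 were among the 1274 of the fit that shares its other libraries. The continuous fit with a treatment term called 922 genes (5.81%), and 90 (0.580%) without celecoxib 1.

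The genes of smallest p were taken among those with a mean of at least 1 CPM, leaving out predicted genes, clones and pseudogenes. These 10 genes all had high and low libraries that did not overlap. In order of p they were Has3, Bmp3, Sult1a1, Acpl2, Dock5, Tnfrsf21, Usp2, Fam26e, Ak3 and Fadd, with adjusted p from 0.196 to 0.243. Among all 14796 genes, 130 (0.879%) had every high library above every low one and 251 (1.70%) the reverse. Values below are in CPM and run from the most to the least Fkbp5: celecoxib 1, celecoxib 3, vehicle 5, celecoxib 4 and vehicle 4 for high, then vehicle 3, rofecoxib 5, rofecoxib 3, vehicle 2 and vehicle 1 for low.

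Sult1a1, a sulfotransferase of phenols and catechols, stood at 123, 89.3, 72.4, 70.6 and 87.0 CPM in the high libraries and at 53.9, 44.0, 46.1, 40.1 and 38.8 in the low. Its lowest high library thus lay above its highest low one, and the log2 fold change was 1.03 ± 0.16 (SE). It rose in the 9 libraries without celecoxib 1 (0.86 ± 0.10, adjusted p = 0.0498) and with each doubling of Fkbp5 over the 15 libraries (0.39 ± 0.03, adjusted p = 9.3e-07). Tnfrsf21, the death receptor DR6, read 45.7, 25.5, 25.6, 24.9 and 18.9 against 11.3, 13.2, 10.6, 7.72 and 8.37. It was the widest difference of the 10 genes, 1.505 ± 0.25, and it too rose without celecoxib 1 (1.23 ± 0.16, adjusted p = 0.0498). Has3, a hyaluronan synthase, read 18.4, 28.0, 24.6, 21.9 and 24.2 against 11.2, 14.2, 12.5, 10.98 and 7.76. Here celecoxib 1 was the lowest of the high libraries, and Has3 rose without it (1.14 ± 0.15, adjusted p = 0.0498, against 1.08 ± 0.15 with it).

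Usp2, a deubiquitinase whose transcript cycles with the circadian clock, read 44.2, 35.5, 43.7, 34.2 and 35.3 CPM in the high libraries and 20.9, 29.6, 19.8, 23.0 and 22.6 in the low (0.77 ± 0.13). Ak3, the adenylate kinase of the mitochondrial matrix, Bmp3, a growth factor of the bone morphogenetic protein family, and Dock5, an activator of the GTPase Rac, differed by 0.36 ± 0.06, 0.56 ± 0.09 and 0.75 ± 0.12. Fadd, the adaptor that couples death receptors to caspase-8, stood lower in the high libraries, at 7.62, 8.85, 9.21, 8.70 and 9.86 CPM against 11.7, 12.3, 11.9, 11.02 and 12.7. Its log2 fold change was -0.40 ± 0.07, and it fell with each doubling of Fkbp5 (-0.15 ± 0.02, adjusted p = 5.9e-04, and adjusted p = 0.0147 without celecoxib 1). Acpl2, a phosphatase of proteoglycan linker synthesis, and Fam26e, a member of the calcium homeostasis modulator family, were lower by -0.68 ± 0.11 and -0.33 ± 0.06.

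**Figure D2:**
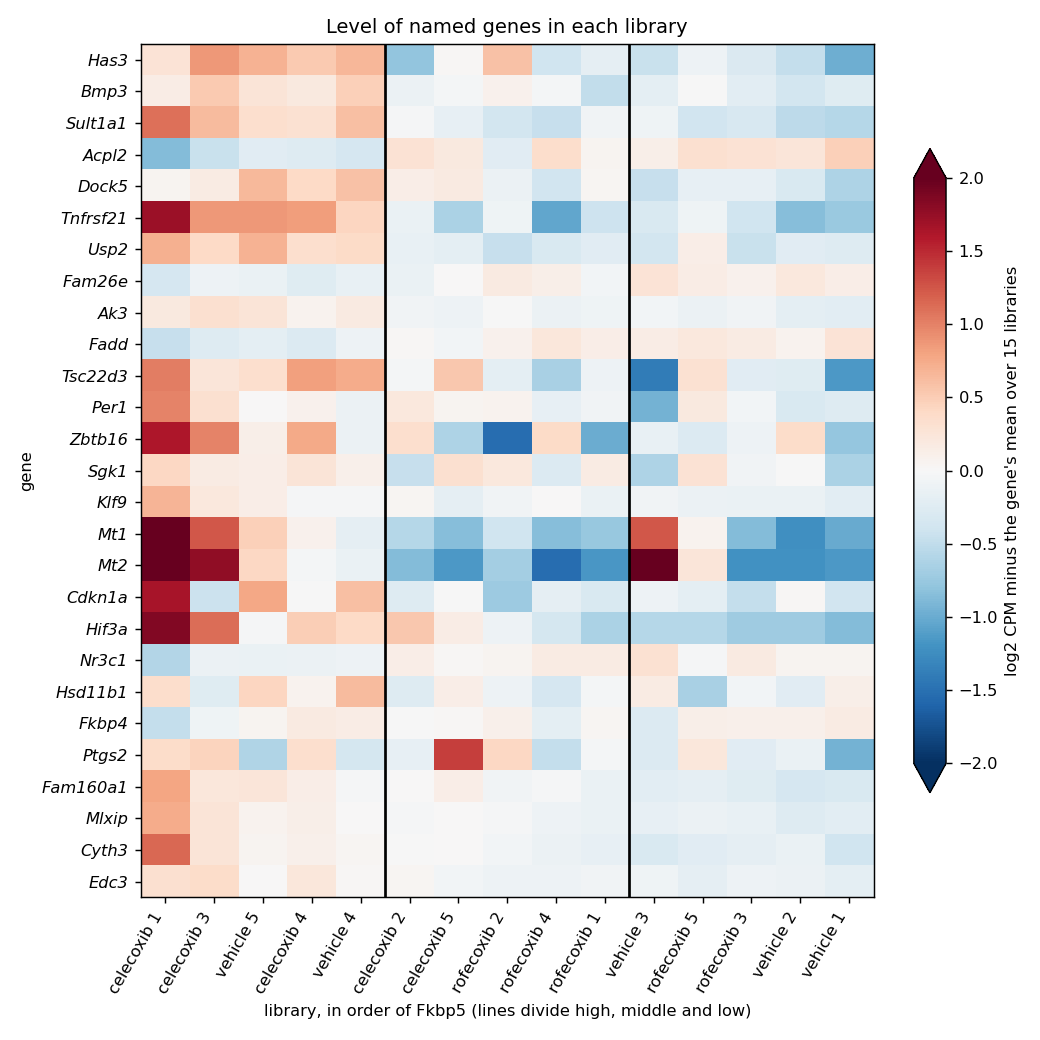
Level of the genes of smallest p, the glucocorticoid genes looked at in every case and the genes most like Fkbp5, as log2 CPM minus the gene's mean over the 15 libraries, with libraries ordered by Fkbp5. The first 10 rows differ in colour between the high and low columns, with middle libraries on either side, while Mt1 and Mt2 are deep red in celecoxib 1 (2163 CPM for Mt1) and red again in the low library vehicle 3 (424 CPM).

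Genes known to be induced by glucocorticoids stood higher in the high Fkbp5 libraries as a group. The list was chosen with earlier results of these data known, so its counts are a description. Of 62 listed genes, 57 were tested, 47 had a positive log2 fold change and the median was 0.51, beside 51.9% positive and a median of 0.0064 over all genes. Unadjusted p was under 0.05 for 28 of the 57 in the higher direction, where 4.55% of all genes were, and for 1 in the lower direction, where 4.65% were. Every high library lay above every low one for 9 of the 57, where 0.879% of all genes did so, among them Sult1a1, Usp2, Fam107a, Hif3a, Map3k6, Mertk, Glul and Klf9. Without celecoxib 1 the median was 0.34 over the same 57 genes and 45 were positive, beside 51.5% of all genes. Of the 57, 3 rose at an adjusted p under 0.05, where 0.0464% of all genes did: Sult1a1, Map3k6 and Glul, each at 0.0498. Over the 15 libraries 31 of 58 rose with Fkbp5 and none fell (background 4.68% and 3.35%). That fit also called genes of other lists, given below. Without celecoxib 1, 7 of 57 rose (background 0.372%), among them Sult1a1, Usp2, Fam107a, Hif3a, Map3k6 and Glul. Fam107a, Map3k6, Glul and Mertk are named here after their values were seen.

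**Figure D3:**
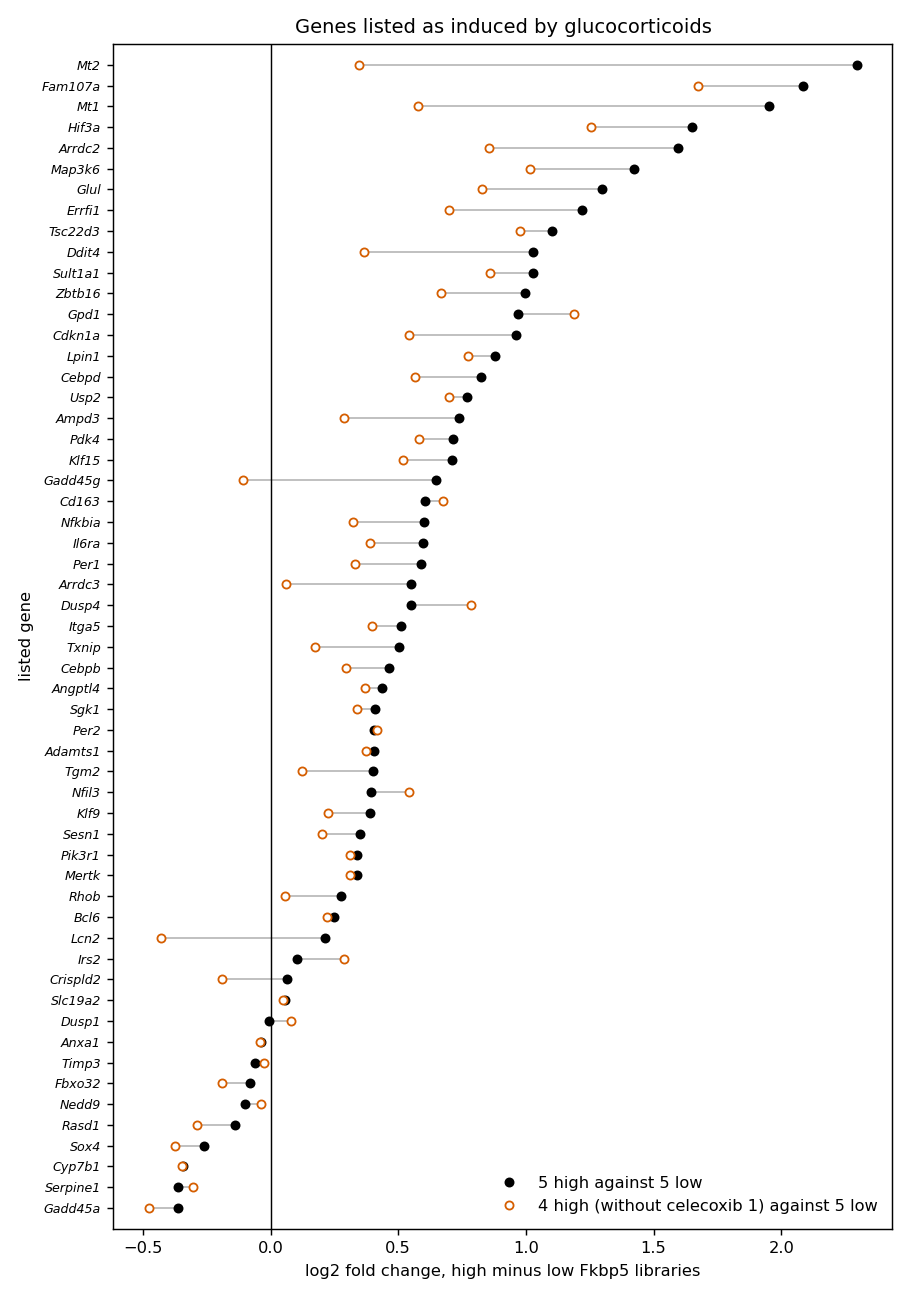
Log2 fold change, high minus low Fkbp5 libraries, of 56 of the 57 tested genes listed as induced by glucocorticoids, with all 10 libraries (black) and without celecoxib 1 (open). Most black points lie right of 0, and the open point lies far to the left of the black one for Mt1 and Mt2 (1.95 and 0.58 for Mt1) but close to it for Sult1a1, Usp2 and Mertk.

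Fam107a, an actin-binding protein induced by stress and glucocorticoids in brain, followed Fkbp5 closely. It stood at 289, 163, 103, 106 and 83.6 CPM in the high libraries and at 38.2, 52.9, 42.8, 23.6 and 24.4 in the low. All 5 high libraries lay above all low ones (2.09 ± 0.39), and the middle libraries, which had no part in that difference, lay between 33.4 and 63.7. It rose by 0.79 ± 0.05 per doubling of Fkbp5 (adjusted p = 6.6e-07) and by 0.84 without celecoxib 1 (adjusted p = 1.8e-04). Map3k6, a stress-activated kinase of the ASK family, read 210, 92.1, 82.2, 77.0 and 86.4 CPM against 54.7, 45.1, 40.8, 38.0 and 32.7. Its high libraries without celecoxib 1 spanned only 77.0 to 92.1, and it rose with and without that library (0.56 ± 0.03 per doubling, adjusted p = 5.2e-08, and 0.50, adjusted p = 9.3e-05).

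Glul, glutamine synthetase and a textbook glucocorticoid target in muscle, stood at 2291, 742, 900, 760 and 924 CPM in the high libraries against 585, 432, 481, 404 and 465 in the low. The difference was 1.30 ± 0.32 with celecoxib 1 and 0.83 ± 0.11 without it (adjusted p = 0.0498), so that library raised both the difference and its error. Hif3a, an inhibitory member of the hypoxia-inducible factors, read 37.6, 22.6, 10.3, 14.8 and 13.7 against 7.07, 7.08, 6.36, 6.40 and 5.72. Its 5 low libraries were tight, its high ones were spread widely, and it rose with Fkbp5 over the 15 libraries (0.62 ± 0.05, adjusted p = 3.1e-06) and without celecoxib 1 (0.62, adjusted p = 0.00201).

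**Figure D4:**
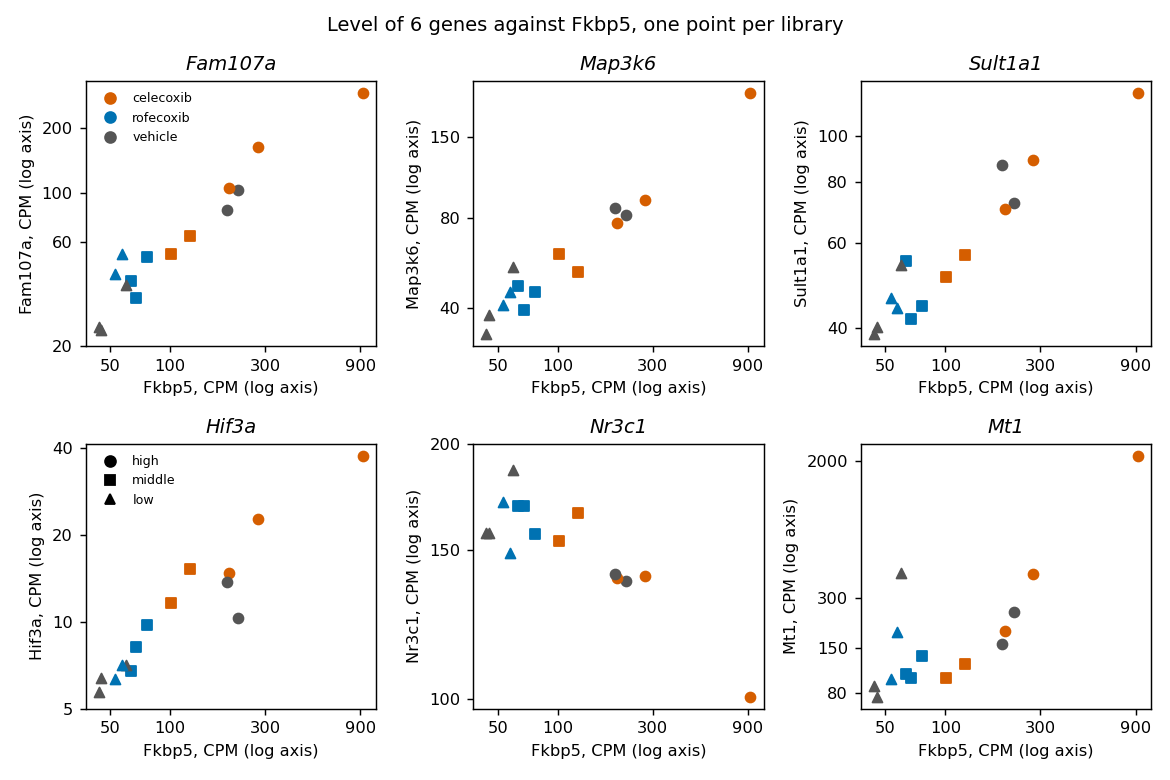
CPM of 6 genes against Fkbp5 CPM (both log axes), one point per library, coloured by treatment and shaped by level. Fam107a, Map3k6, Sult1a1 and Hif3a rise with Fkbp5 but not at every step. Sult1a1, for one, stood at 53.9 CPM in vehicle 3 and at 44.3 and 41.7 CPM in rofecoxib 2 and rofecoxib 4, which hold more Fkbp5. Nr3c1 falls, and Mt1 shows the low library vehicle 3 at 424 CPM, level with celecoxib 3 at 420 CPM.

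Other classical targets were less orderly between the levels. Tsc22d3, the anti-inflammatory leucine zipper protein GILZ, stood at 191, 111, 118, 166 and 157 CPM in the high libraries and at 35.5, 116, 80.005, 79.5 and 42.3 in the low. One low library, rofecoxib 5, reached into the high range (1.10 ± 0.31, unadjusted p = 0.00548, adjusted p = 0.35). Klf9, a Kruppel-like factor and early receptor target, did not overlap (369, 266, 251, 227 and 225 against 220, 211, 210, 210 and 197) but differed by only 0.39 ± 0.14. Per1, a clock gene that the receptor also drives, differed by 0.59 ± 0.26, Zbtb16, a zinc finger repressor, by 0.99 ± 0.34, Sgk1, the serum- and glucocorticoid-regulated kinase, by 0.41 ± 0.18 and Cdkn1a, the cell cycle inhibitor p21, by 0.96 ± 0.35, all with overlap. Over the 15 libraries Tsc22d3, Klf9, Per1, Zbtb16 and Cdkn1a rose with Fkbp5 (adjusted p from 3.9e-04 to 0.0197), while Sgk1 did not pass (adjusted p = 0.195). None of these genes passed without celecoxib 1 (adjusted p from 0.114 to 0.764). Several listed genes had values near 0: Dusp1, a phosphatase that damps MAP kinases, had -0.01 ± 0.21, Anxa1, the anti-inflammatory annexin, -0.04 ± 0.07, and Timp3, an inhibitor of metalloproteases, -0.06 ± 0.07.

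The metallothioneins Mt1 and Mt2, metal-binding proteins induced by zinc, stress and glucocorticoids, rested on single libraries. Mt1 stood at 2163, 420, 249, 189 and 158 CPM in the high libraries and at 424, 187, 98.0, 76.5 and 88.7 in the low. Mt2 stood at 1802, 254, 99.1, 72.05 and 68.0 against 315, 88.0, 32.0, 32.1 and 33.6. Vehicle 3, with the most Fkbp5 of the low libraries, thus held more of both than 4 of the 5 high libraries. The log2 fold changes of 1.95 ± 0.84 and 2.30 ± 1.12 dropped to 0.58 ± 0.55 and 0.35 ± 0.81 without celecoxib 1.

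The promoters of the named genes were read for the core letters of a glucocorticoid response element, since several of these genes moved together. The windows come from RefSeq (GRCm38.p6, a later build than the mm9 of the counts, matched by symbol) and hold 250 bases before and 50 after each annotated start. The pattern ACANNNTGT, which reads the same on both strands, occurs in 2249 of 32851 windows of all genes (6.85%). It is short and was taken up after a longer form had been searched, so its counts are a description. Of the 62 glucocorticoid-induced genes 50 have a window, 69 windows in all, and 11 windows (15.9%) of 9 genes hold the pattern: Fam107a, Galnt15, Glul, Lcn2, Map3k6, Mt1, Sgk1, Trim63 and Txnip. The 2 Fam107a windows counted hold the same site. By gene the share was 18.0%, where 7.90% of all genes had a match. Of the 33 named genes 26 have a window, and 5 of these (19.2%) hold the pattern. The only window of Fkbp5 does not hold these letters. The 250 bases before the start are shown for 3 genes that followed Fkbp5 without celecoxib 1, namely Fam107a, Map3k6 and Glul, and for Mt1 and Sgk1, which did not pass that test (adjusted p = 0.596 and 0.764). Capitals mark the pattern.
Fam107a (chr14:8309780-8310029, minus strand): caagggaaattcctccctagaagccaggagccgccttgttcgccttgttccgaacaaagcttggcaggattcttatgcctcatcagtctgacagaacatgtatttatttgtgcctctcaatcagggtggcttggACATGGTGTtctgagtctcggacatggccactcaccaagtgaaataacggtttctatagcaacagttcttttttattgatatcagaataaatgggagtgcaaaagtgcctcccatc
Map3k6 (chr4:133240568-133240817, plus strand): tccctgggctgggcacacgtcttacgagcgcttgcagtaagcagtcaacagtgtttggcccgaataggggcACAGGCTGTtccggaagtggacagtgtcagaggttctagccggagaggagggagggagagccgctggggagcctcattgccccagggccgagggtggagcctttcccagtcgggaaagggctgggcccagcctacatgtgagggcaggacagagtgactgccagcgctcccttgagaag
Glul (chr1:153899679-153899928, plus strand): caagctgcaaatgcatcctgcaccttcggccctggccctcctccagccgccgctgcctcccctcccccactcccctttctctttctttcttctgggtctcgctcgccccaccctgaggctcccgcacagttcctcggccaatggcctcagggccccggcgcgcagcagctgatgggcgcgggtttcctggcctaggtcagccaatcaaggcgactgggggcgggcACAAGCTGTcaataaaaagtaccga
Mt1 (chr8:94178839-94179088, plus strand): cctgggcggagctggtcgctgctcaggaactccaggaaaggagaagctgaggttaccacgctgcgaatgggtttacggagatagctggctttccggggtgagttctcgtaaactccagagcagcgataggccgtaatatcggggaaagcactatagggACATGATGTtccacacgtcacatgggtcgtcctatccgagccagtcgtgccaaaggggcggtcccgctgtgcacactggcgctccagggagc
Sgk1 (chr10:21993640-21993889, plus strand): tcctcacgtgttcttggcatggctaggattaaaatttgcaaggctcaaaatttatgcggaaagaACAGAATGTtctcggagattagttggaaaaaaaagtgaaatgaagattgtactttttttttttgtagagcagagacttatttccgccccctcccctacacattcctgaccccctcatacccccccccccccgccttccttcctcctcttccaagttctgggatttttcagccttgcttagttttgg

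In these windows the pattern begins 116 bases before the start in Fam107a, 179 in Map3k6, 25 in Glul, 92 in Mt1 and 186 in Sgk1. The windows shown for Sgk1 and Fam107a are 1 of the 2 of each gene that hold the pattern. Genes that followed Fkbp5 without celecoxib 1 and genes that did not thus both carry these letters, but all were taken from those with a match. With celecoxib 1 included, Mt1 also rose over the 15 libraries (0.83 ± 0.13 per doubling of Fkbp5, adjusted p = 0.00173). A match of letters shows no binding.

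The receptor itself ran the other way. Nr3c1, the glucocorticoid receptor gene, stood at 100.5, 140, 138, 139 and 140 CPM in the high libraries and at 186, 149, 171, 157 and 157 in the low, with no overlap (-0.29 ± 0.09, unadjusted p = 0.00627). It fell with each doubling of Fkbp5 over the 15 libraries (-0.13 ± 0.02, adjusted p = 0.00221), and the fall did not pass the test without celecoxib 1 (-0.10, adjusted p = 0.213). Nr3c2, the mineralocorticoid receptor gene, had -0.54 ± 0.19 (unadjusted p = 0.0192), and Hsd11b1, the enzyme that regenerates active hormone inside cells, had 0.41 ± 0.18 (unadjusted p = 0.0465). Of the 7 tested genes for receptors and local hormone supply, 2 were positive, and the median was -0.03, or -0.08 without celecoxib 1.

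The chaperones that fold the receptor had differences near 0. Of 20 listed genes 12 were positive, with a median of 0.03 (16 and 0.05 without celecoxib 1). At an unadjusted p under 0.05, 1 was higher and none lower, where 4.55% and 4.65% of all genes were. That one was Ppp5c, a phosphatase that competes with FKBP51 for Hsp90, at 80.8, 79.6, 79.2, 74.6 and 78.9 CPM against 65.4, 72.2, 58.7, 60.5 and 62.7. Its groups did not overlap (0.33 ± 0.06), where 0.879% of all genes had every high library above every low one. It rose with Fkbp5 over 15 libraries (adjusted p = 9.1e-04) and without celecoxib 1 (adjusted p = 0.0152). Of the 20 genes it was the only 1 called in either fit, where 4.68% and 0.372% of all genes rose. It is named after its values were seen. Fkbp4, which encodes FKBP52, the co-chaperone with the opposite effect on hormone binding, had -0.05 ± 0.12, a sign that flips to 0.04 ± 0.09 without celecoxib 1. None of the 15 tested FKBP genes other than Fkbp5, Fkbp4 among them, had an unadjusted p under 0.05, where 9.20% of all genes did. Their median was 0.02. Over the 15 libraries 1 of these 15 genes rose with Fkbp5 and none fell (background 4.68% and 3.35%). Among 12 receptor coregulators 10 were positive with a median of 0.11, which was 0.05 without celecoxib 1. The one with the smallest p was Ncoa3, a p160 coactivator, whose levels did not overlap (0.37 ± 0.09, unadjusted p = 0.00203).

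Genes known to be repressed by glucocorticoids leaned lower. Of 28 listed genes 19 were tested, 14 were negative and the median was -0.24, beside 51.9% positive and a median of 0.0064 over all genes. At an unadjusted p under 0.05, 3 were lower and 1 higher, where 4.65% and 4.55% of all genes were. Il6, Il1b and Tnf, which encode inflammatory cytokines, did not pass the filter on low counts. Cxcl12, a chemokine, had -0.47 ± 0.11 and Tlr2, a receptor for bacterial lipoproteins, -0.44 ± 0.11, the latter with no overlap. Both fell with Fkbp5 over the 15 libraries (adjusted p = 0.00559 and 0.0111), while Pla2g4a and Csf1, a phospholipase and a macrophage growth factor on the same list, rose (adjusted p = 0.00262 and 0.00191). That fit thus called 2 of the 21 genes tested lower and 2 higher, where 3.35% and 4.68% of all genes were. The list's median turned to 0.05 without vehicle 3, so its direction rests on that low library. Ptgs2, the gene of cyclooxygenase-2, had 0.36 ± 0.25 with overlapping levels, and its sign turned negative when treatment was a term (-0.06).

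Further lists had medians nearer to 0. Among 23 clock genes 13 were positive with a median of 0.06, and 12 with a median of 0.0059 without celecoxib 1. The clock genes moved in both directions. At an unadjusted p under 0.05, 4 were higher and 1 lower, where 4.55% and 4.65% of all genes were. Without celecoxib 1, 3 were higher and 6 lower at that p, where 1179 of 15078 genes were in either direction. Beside Usp2, Npas2, a partner of Bmal1, was lower with no overlap (-0.87 ± 0.21) and Cry1, a clock repressor, higher with overlap (0.63 ± 0.19). Among 24 FoxO and fasting genes 17 were positive with a median of 0.14, with Ccng2, a cyclin G gene induced by FoxO factors, at 0.49 ± 0.10 and no overlap. Over the 15 libraries 7 of these 24 rose with Fkbp5 and none fell (background 4.68% and 3.35%). The same fit raised 5 of 22 ATF4 stress genes and 3 of 27 immediate early genes, and none of either list fell. Without celecoxib 1 it called 0 genes of these lists. Interferon response genes were negative in 23 of 24 cases with a median of -0.16, but 2 were lower at an unadjusted p under 0.05, where 4.65% of all genes were. Without celecoxib 1 their median was -0.10 with 19 of 24 negative. Mthfd2, a mitochondrial folate enzyme on the ATF4 stress list, stood at 193 CPM in celecoxib 1 and at 24.0 to 49.1 in the other high libraries, against 11.3 to 32.0 in the low.

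**Figure D5:**
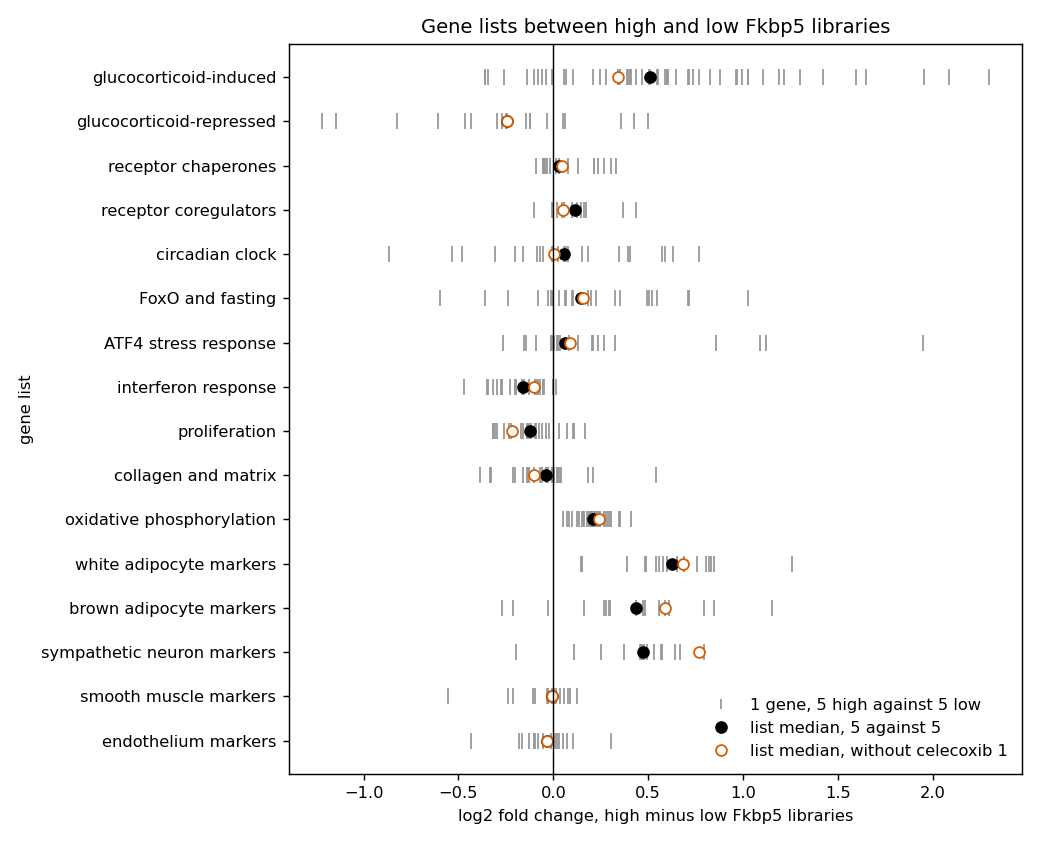
Log2 fold change, high minus low Fkbp5 libraries, of each tested gene (ticks) in 16 gene lists, with the list median over 10 libraries (black) and without celecoxib 1 (open). The glucocorticoid-induced median is 0.51 and 0.34, and the white adipocyte median, 0.63 and 0.68, is as far from 0.

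Under the same limits on level and symbol, the 5 genes below followed Fkbp5 most closely by rank over the 15 libraries, whatever their known role. Because they were chosen for likeness no test of it is given. Hif3a was tested above as a listed gene. Spearman's rho was 0.961 for Fam160a1, a trafficking adaptor subunit, 0.957 for Mlxip, the glucose-sensing transcription factor MondoA, 0.943 for Cyth3, an activator of ARF GTPases, 0.936 for Hif3a and 0.929 for Edc3, a factor of mRNA decapping. Pearson's r on the log2 scale ran from 0.895 to 0.949 for the 5 genes, and from 0.801 to 0.875 without celecoxib 1 and celecoxib 3, the 2 libraries farthest from the median Fkbp5. Fam160a1 stood at 57.7, 38.9, 39.5, 36.6 and 33.0 CPM in the high libraries, 33.5, 36.6, 31.9, 32.8 and 30.6 in the middle and 28.7, 29.3, 28.3, 26.4 and 27.1 in the low. Its steps between the levels are small, and single libraries cross them: celecoxib 5 of the middle level held more than vehicle 4 of the high one.

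Markers of fat were higher in the high libraries as well, though no gene of any kind passed the adjusted test between the levels. All 18 white adipocyte markers had a positive log2 fold change, with a median of 0.63, beside 51.9% positive over all genes. At an unadjusted p under 0.05, 3 of the 18 were higher, where 4.55% of all genes were. Of 17 tested brown adipocyte markers 14 were positive with a median of 0.44, and none had such a p. The summed white adipocyte markers ranged from 2974 to 7763 CPM in the high libraries and from 2815 to 4332 in the low, and the top 2 libraries were vehicle 4 and vehicle 5. All 39 genes of oxidative phosphorylation and the citrate cycle were positive too, at a median of 0.21. In bulk tissue, more cells of a type and more RNA per cell cannot be told apart. The part of fat in the results above was not tested beyond a fit with the adipocyte markers as a covariate, in which the glucocorticoid-induced median was 0.53 and no gene was called. Sympathetic neuron markers were positive for 15 of 16 tested with a median of 0.47 (0.77 without celecoxib 1), but summed to 70.7 to 1255 CPM in the high libraries and 70.8 to 859 in the low, with celecoxib 4 and rofecoxib 5 at the top of each. With these markers as a covariate the glucocorticoid-induced median was 0.49. Smooth muscle and endothelial markers, the vessel's own cells, had medians of -0.01 and -0.03. The summed neutrophil markers read 22.0 CPM in celecoxib 1 and 3.2 to 12.9 in the other 14 libraries, and their part was not tested.

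Vehicle is the only treatment found at both levels, so a treatment term leaves the comparison to vehicle 5 and vehicle 4 against vehicle 3, vehicle 2 and vehicle 1. Within those 5 libraries, a fit added after the data were seen, 45 of 15109 genes were called (0.298%), 35 of them higher (0.232%). They were led by genes of fat: Cidec, a lipid droplet protein, stood at 282 and 315 CPM against 112, 110 and 103, and Plin1, Car3, Adipoq and Pparg were called with it, 5 of the 18 white adipocyte markers. Dock5 (1.08 ± 0.11, adjusted p = 0.0268), Has3 and Shroom4, an actin-binding protein, also rose, as did Cry1, and Nr3c2 fell (-0.83 ± 0.11, adjusted p = 0.0437). No gene of the glucocorticoid-induced list was called there, but 46 of its 57 genes were positive with a median of 0.37, and 22 had an unadjusted p under 0.05 in the higher direction (background 10.5%). Such an excess was not particular to that list. The same count was 33 of 39 for oxidative phosphorylation and citrate cycle genes, which also had a median of 0.37. It was 14 of 18 for white adipocyte, 14 of 16 for sympathetic and 1 of 15 for smooth muscle markers. The white adipocyte median was 1.02 and the sympathetic median 3.89 in the same libraries, and the part of both was not tested. The summed white adipocyte markers stood at 7259 CPM in vehicle 5 and 7763 in vehicle 4, against 4332, 3399 and 4103 in vehicle 3, vehicle 2 and vehicle 1. The summed sympathetic markers were high in vehicle 4 alone, at 588 CPM, against 102 in vehicle 5 and 70.8 to 84.1 in the 3 low libraries. Fam107a differed by 1.71, Map3k6 by 1.02, Tsc22d3 by 1.38 and Mt2 by -0.57 among the vehicle libraries, with adjusted p from 0.0563 to 0.847.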

How the data were processed

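Polyadenylated RNA of 15 mouse aortas was sequenced from TruSeq libraries of 13 PCR cycles, built over 3 days that the labels do not assign to libraries. The authors deposited raw counts per gene with mm9 coordinates. CASAVA 1.8.2 and STAR 2.5.2a are named in the submitters' processing notes, and the counting tool is not given in the sources used here. Column totals differ by 0.0971% of their mean and the 37 mitochondrial rows are all at 0; a step that would set a common total is not recorded, so depth before it is unknown.

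Libraries were ranked by Fkbp5 CPM (count over column total, times 1e6) and the 5 highest compared with the 5 lowest. Counts were tested with edgeR 4.0.16 in R 4.3.3 (robust quasi-likelihood, TMM scaling, filterByExpr, Benjamini-Hochberg adjustment over all genes but Fkbp5, threshold 0.05), after a check on simulated data. Adjusted p-values in the text are from edgeR unless another tool is named. Fold changes without a treatment term compare levels that differ in treatment. A continuous fit used log2 Fkbp5 CPM, with and without treatment. Alternatives used DESeq2 1.42.0, limma 3.58.1, other scalings and filters, and left out each library. Figures used matplotlib 3.10.9. Each library is 1 animal per the labels. No 2 libraries agreed within sampling noise (chi-square per gene at least 14.7 over 105 pairs).

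Named genes are the 10 of smallest p with a mean of at least 1 CPM, 13 glucocorticoid, clock or cyclooxygenase genes looked at in every case, the 5 of highest Spearman's rho with Fkbp5, and those said to be named after their values were seen. The choices by p and by rho left out genes under a mean of 1 CPM and symbols of predicted genes, clones, pseudogenes, microRNAs and snoRNAs. Members and the 30 gene lists were chosen with earlier results of these data known. In the listed genes given by name beside a list's count, the choice was made after their values were seen. Lists are described by counts and medians, with no set test. For 1 listed gene, counted in its list, values are not reported here.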

Additional observations from a re-analysis of the deposited data

Results flagged for a closer look

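Celecoxib 1 stood far from the other 4 high Fkbp5 libraries in 7 of the 8 cases in which 1 library's gap to the next, on the log2 scale, took up more than 0.71 of the range of its 5 libraries, over 71 groups of 5 looked at. Chance gives about 1 such case in 20 groups, but 1 of the 7 is Fkbp5, the value that ranked the libraries, and several of the genes were named for following Fkbp5, so the tally is a description. Its Fkbp5 stood at 926 CPM against 193 to 275 in the other high libraries. Map3k6 stood at 210 CPM against 77.0 to 92.1, Glul at 2291 against 742 to 924, and Cyth3 at 457 against 212 to 247. Shroom4 read 63.7 CPM against 33.5 to 37.1 and Plxna2, a semaphorin receptor, 98.8 against 44.1 to 51.0. Nr3c1 was the one gene of these that was low in celecoxib 1, at 100.5 CPM against 138 to 140. In the low libraries, Fkbp4 stood at 111 CPM in vehicle 3 against 144 to 151 in the other 4.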

How the results depend on the processing

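The count of genes called between the high and low libraries was 0 in 23 of 31 alternatives, among them other scalings and filters, limma-voom, thresholds of 0.01 and 0.1, marker covariates, 4 against 4, 7 against 7 and a re-ranking without celecoxib 1. It was 3 with the middle libraries as an extra level, 176 with DESeq2, 1274 and 922 with continuous Fkbp5 without and with treatment, 66 and 90 for these without celecoxib 1, and 45 in the vehicle libraries alone. Leaving out 1 library gave 0 to 7 calls, 7 only without celecoxib 1. Of the 33 named genes, 30 kept their sign in every alternative that gave a value. Mt2 turned to -0.58 with treatment as a covariate and to -0.57 in the vehicle libraries. Fkbp4 turned to 0.017 on re-ranking, 0.093 with treatment as a covariate, 0.092 in the vehicle libraries, 0.036 without celecoxib 1 (-0.12 to 0.036 over the libraries left out), and 0.013 and 0.029 with continuous Fkbp5 without celecoxib 1, before and after adding treatment. Ptgs2 turned to -0.062 with treatment as a covariate and in the vehicle libraries, and to -0.21 and -0.24 with continuous Fkbp5 and treatment, with and without celecoxib 1. The cause was not tested. Celecoxib against rofecoxib for Fkbp5 ran from 1.36 to 2.16 without 1 library, and its adjusted p exceeded 0.05 only without a rofecoxib library. The glucocorticoid-induced median ran from 0.28 on re-ranking to 0.57.

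Replicate numbers did not pair the libraries: same-numbered libraries had correlations from -0.777 to 0.809, over 0.1 in 7 of 15 pairs, and 4 of 15 libraries correlated best with their own number. With the replicate block 0 genes were called, and list medians moved to -0.43 for glucocorticoid-repressed genes, -0.65 for interferon, 0.11 for smooth muscle, -0.32 for endothelium, 0.072 for white adipocyte, -3.79 for sympathetic, -1.10 for Schwann cell and -0.19 for mast cell markers. With continuous Fkbp5 and treatment, without celecoxib 1, medians were -0.42 for glucocorticoid-repressed, -0.22 for collagen, -0.39 for proliferation, 1.16 for brown adipocyte and 4.42 for sympathetic genes. With treatment as a covariate they were -0.25 for receptors and hormone supply, -0.34 for proliferation and 3.89 for sympathetic genes, and in the vehicle libraries -0.25, -0.35 and 3.89. Mast cell markers had -0.20 with continuous Fkbp5 and treatment. Leaving out 1 library moved the medians from -0.37 to 0.052 for glucocorticoid-repressed genes and from -0.49 to 0.15 for striated muscle markers, both highest without vehicle 3, and striated muscle had 0.11 at 4 against 4. These numbers of libraries limit what could be called, and depth before any common total is unknown.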

Other observations

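Por, the reductase that supplies electrons to cytochrome P450 enzymes, stood at 457, 275, 326, 213 and 258 CPM in the high libraries and at 171, 187, 169, 143 and 149 in the low, with no overlap. It rose with Fkbp5 over the 15 libraries with a treatment term (adjusted p = 1.1e-05) and in the same fit without celecoxib 1 (0.49 per doubling, adjusted p = 0.00128). Plxna2 rose without celecoxib 1 between the levels (0.41 ± 0.06, adjusted p = 0.0498). Both were named after their values were seen. Stc2, a secreted stanniocalcin induced under stress, read 52.9 CPM in celecoxib 1, 17.3 to 23.3 in the other high libraries and 10.2 to 13.8 in the low.

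Proliferation genes were negative in 19 of 24 cases with a median of -0.12, and in 22 of 24 without celecoxib 1, with a median of -0.22; none had an adjusted p under 0.05. Collagen and matrix genes were negative in 18 of 27 with a median of -0.04, and in 23 of 27 with a median of -0.10 without celecoxib 1. Macrophage markers were positive in 12 of 14 with a median of 0.22, and fibroblast markers had a median of -0.03. Schwann cell, mast cell and striated muscle markers had medians of 0.13, 0.33 and -0.28 in the comparison of 5 against 5, and of 0.34, 0.55 and -0.16 without celecoxib 1. Lep, the fat hormone leptin, averaged 6.4 CPM in the high and 2.7 CPM in the low libraries (unadjusted p = 0.038).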
